A study of Mus musculus with 24 samples.

Results

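The collagens are the family of triple-helical proteins that give lung tissue its scaffold, and they were followed here as 41 genes of the 18193 named on the arrays. Members were all genes whose symbol has the form of a collagen chain (Col, a type number, a, a chain number) and that were read by a probe set annotated to that gene alone. Each gene was represented by its probe set with the highest mean signal over all samples, 29 of them on the first array of each sample (set A) and 12 on the second (set B), out of 79 collagen probe sets. Lung RNA came from 4 groups of 3 samples: wild-type mice given PBS, wild-type mice given HDM, mice lacking interleukin 13 (IL-13 KO) given PBS, and IL-13 KO mice given HDM. HDM commonly stands for house dust mite, the source of an inhaled allergen, and PBS for phosphate-buffered saline. Interleukin 13 is a cytokine of the type 2 immune response. The sources used here do not give strain, age, dose, route or schedule, nor the way in which Il13 was inactivated. Whether the 3 samples in a group are 3 animals is not stated in the labels, and p-values therefore measure only the spread between them, which may be technical.

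Collagen chains fold in threes into a triple helix inside the endoplasmic reticulum, after prolines and lysines have been hydroxylated, and are then secreted and assembled outside the cell. The fibrillar chains (types I, III and V among others) build the fibres of airway and vessel walls. Type IV chains form the sheet under epithelium and endothelium, the basement membrane, and in the lung the alpha 3, alpha 4 and alpha 5 chains are a known component of the alveolar basement membrane. Type VI forms beaded microfilaments around cells, and fibril-associated collagens (FACIT) decorate the surface of fibres. Deposition of collagen beneath the airway epithelium is a known feature of asthmatic airways.

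Signals were linear intensities that the authors had scaled to a common mean on each array, and differences are given in log2 after a small constant was added, with the standard error (SE) from the limma model. A gene was called when its p, adjusted by Benjamini-Hochberg over all 31496 tested probe sets, was under 0.05. Il13 signals after PBS were 4.65 to 12.1 in wild type and 3.3 to 9.45 in KO, and after HDM 15.5 to 29.9 and 8.71 to 15.5. They lay under the filter on low signal, and the sources used here do not say whether this probe set reads deleted sequence, so the genotype labels stay unchecked. Lung markers were present in every sample: the summed signal of 4 alveolar type 2 genes, the surfactant-producing cells, ranged over 12825 to 16779 in the 12 samples, both ends in the wild-type HDM group. A group of 3 libraries stood apart by skeletal muscle RNA. The summed signal of 8 skeletal muscle genes was 3039.5 in the second wild-type PBS sample (replicate 2), and 1751 and 6557 in HDM replicates 1 and 2 of wild type, against 207.5 to 471 in the other 9 samples. Leaving those 3 out leaves 1 wild-type HDM sample, and values without them are given for the collagens and partner genes called in wild type.

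Of the 41 genes, 32 passed the filter on low signal and were tested, and 13 of these were called in at least 1 of 5 comparisons. In wild type, HDM raised 9 collagen genes and lowered 3. The 9 were Col1a2, Col3a1 and Col5a2 of the fibrillar class, Col6a1, Col6a2 and Col6a3 of type VI, and Col8a1, Col14a1 and Col15a1. The 3 that fell were Col4a4, Col4a5 and Col13a1. The 12 called genes were 37.5% of those tested, while 10.6% of all 14473 genes were called in this comparison (5.4% higher and 5.15% lower). Without IL-13, HDM raised 3 collagen genes, Col1a2, Col3a1 and Col5a2, and lowered 4, Col4a4, Col4a5, Col12a1 and Col13a1. These 7 were 21.9% of those tested, beside 11% of all genes (5.69% higher and 5.3% lower). For both HDM comparisons, the share of all genes with an unadjusted p under 0.05 was not counted. In KO the actin 5′ to 3′ ratio, a measure of RNA integrity, was lower after HDM (0.464 to 0.656) than after PBS (0.748 to 0.854) on set A, and its part was not tested. Counted over all 53 tested collagen probe sets instead of 1 per gene, 20 were called in wild type and 15 in KO, beside 7.7% and 8.56% of all probe sets. The median log2 difference over the 32 collagens was -0.04 in wild type and 0.02 in KO, beside 0.00 and 0.01 over all genes. The tissue was bulk lung, so fewer cells of a type and less RNA per cell cannot be told apart. Both HDM comparisons are given side by side by class, and they share no samples. Leaving out the 3 samples with skeletal muscle RNA left 2 of the 12 wild-type calls, Col6a2 and Col4a4. Fitting only the wild-type groups left 6. Leaving out single samples left 6 to 11 of them, with 6 when either PBS replicate 2 or HDM replicate 2 of wild type was absent and 7 without wild-type PBS replicate 1. In KO it left 3 to 7, with 3 without KO HDM replicate 3 and 4 without PBS replicate 3 or HDM replicate 2 of KO.

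**Figure D1:**
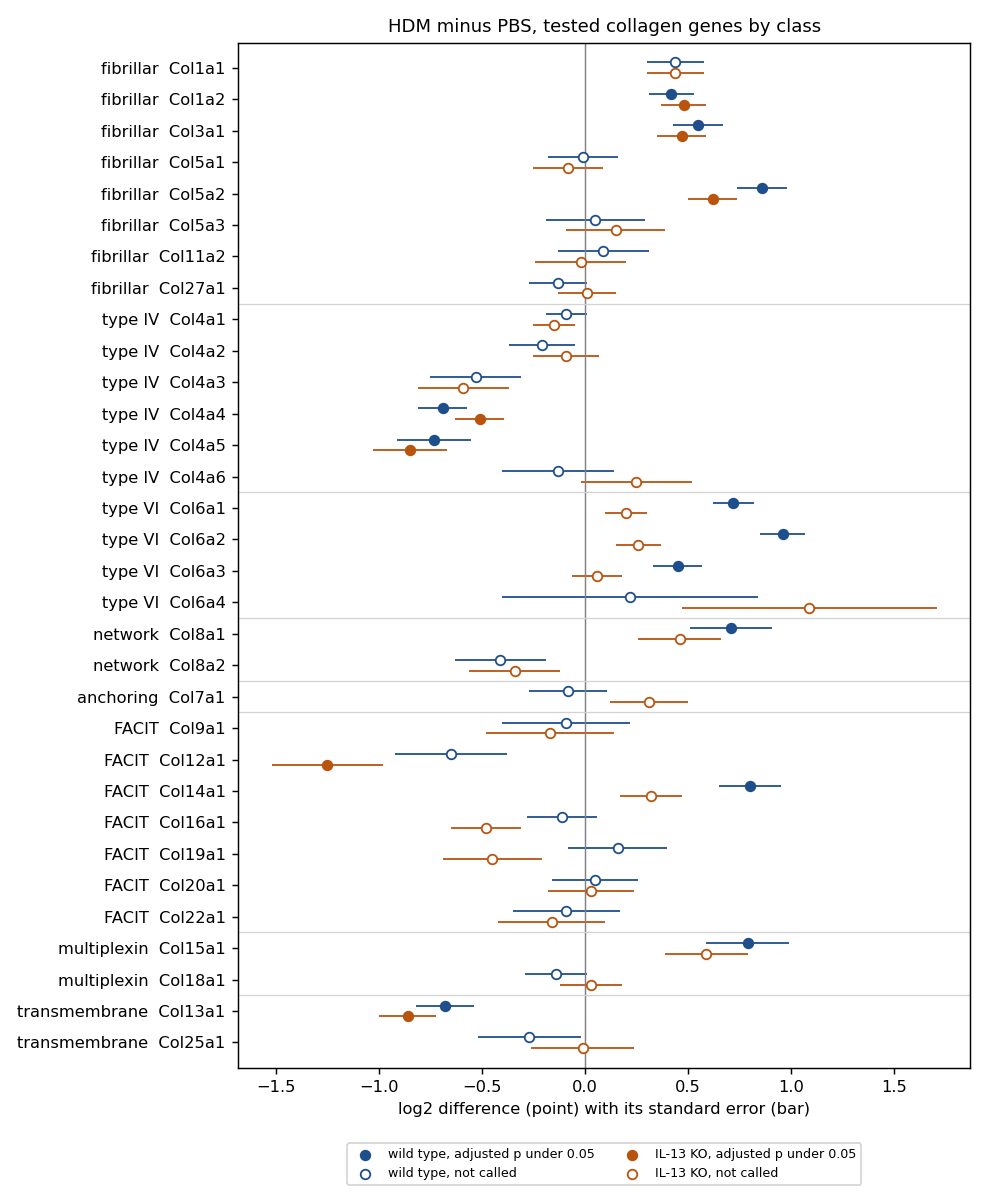
HDM minus PBS for the 32 tested collagen genes, grouped by class, in wild type (blue) and IL-13 KO (orange). Points are log2 differences, bars their standard errors, and filled points had an adjusted p under 0.05. Col1a2, Col3a1 and Col5a2 lie to the right of 0 in both genotypes and Col4a4, Col4a5 and Col13a1 to the left, while Col6a1, Col6a2, Col6a3, Col8a1, Col14a1 and Col15a1 are filled in wild type alone.

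Among the fibrillar collagens, 3 of 8 tested genes rose with HDM in wild type and the same number rose in KO. The class median was 0.26 in wild type and 0.30 in KO. Col1a2 encodes the alpha 2 chain of type I collagen, the main fibre protein of connective tissue. Its signals in wild type were 2359, 2654 and 2561 after PBS and 3001, 3456 and 3707 after HDM. In KO they were 2276, 2373 and 2126 after PBS and 2912, 3296 and 3271 after HDM. Every HDM sample lay above every PBS sample in both genotypes, and the genotypes overlapped under both treatments. The difference was 0.42 ± 0.11 (SE, adjusted p = 0.034) in wild type and 0.48 ± 0.11 (SE, adjusted p = 0.016) in KO. The other tested Col1a2 probe set gave 0.84 (adjusted p = 0.0048) and 0.89 (adjusted p = 0.0036). After quantile normalization the representative probe set gave 0.24 (adjusted p = 0.13) in wild type and 0.19 (adjusted p = 0.24) in KO, and neither was called.

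Col1a1 encodes the alpha 1 chain of type I collagen, 2 copies of which join the alpha 2 chain in each molecule. Its representative probe set read 779, 923 and 990.0 in wild type after PBS and 1079.6, 1419 and 1171 after HDM. The KO samples read 876, 806 and 693 after PBS and 983, 1085 and 1165 after HDM. HDM samples were again above PBS samples in both genotypes without overlap, but with differences of 0.44 ± 0.14 (SE, adjusted p = 0.075) and 0.44 ± 0.14 (SE, adjusted p = 0.067) the gene was not called. A second Col1a1 probe set with lower signals was called in both genotypes, at 1.02 (adjusted p = 0.044) in wild type and 1.77 (adjusted p = 0.0022) in KO. Its KO signals were 215, 172 and 167 after PBS and 516, 623 and 822 after HDM.

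Col3a1, the single chain of type III collagen, which is abundant in distensible tissues, had wild-type signals of 1966, 1795 and 1893 after PBS and 2719.5, 2870.2 and 2708 after HDM. KO signals were 2260.1, 1599 and 1871 after PBS and 2791, 2694 and 2373 after HDM. Treatments did not overlap in either genotype, and KO PBS replicate 1 was the highest of the PBS samples. The difference was 0.55 ± 0.12 (SE, adjusted p = 0.017) in wild type and 0.47 ± 0.12 (SE, adjusted p = 0.037) in KO. A second probe set gave 0.91 (adjusted p = 0.0048) and 1.01 (adjusted p = 0.0026). With quantile normalization the representative gave 0.42 (adjusted p = 0.081) in wild type and 0.22 (adjusted p = 0.37) in KO.

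Col5a2 encodes the alpha 2 chain of type V collagen, a minor fibrillar collagen that helps to set fibre diameter, and lies next to Col3a1 on chromosome 1 in the RefSeq annotation of GRCm38.p6. By representative probe sets it had the largest HDM difference of the fibrillar class in both genotypes. Wild-type signals were 495, 531 and 534 after PBS and 963, 1069.8 and 832 after HDM. KO signals were 537, 448 and 477 after PBS and 666, 818 and 771 after HDM. All HDM samples were above all PBS samples, and after HDM the 3 wild-type samples were above the 3 KO samples. The difference was 0.86 ± 0.12 (SE, adjusted p = 0.001) in wild type and 0.62 ± 0.12 (SE, adjusted p = 0.0086) in KO. A second, dimmer probe set was called in KO alone, at 0.82 (adjusted p = 0.024), with 0.47 (adjusted p = 0.2) in wild type. Col5a1, its partner chain, read 278, 229.7 and 265 in wild type after PBS and 206, 307 and 260.4 after HDM. The corresponding KO values were 226, 249 and 204 and 231, 239 and 175. The treatments overlapped in both genotypes, with differences of -0.01 (adjusted p = 0.98) and -0.08 (adjusted p = 0.83). A second Col5a1 probe set of like signal gave 0.21 (adjusted p = 0.43) in wild type, and 0.23 (adjusted p = 0.33) in KO, where the treatments did not overlap. A dimmer one gave 0.71 (adjusted p = 0.086) in wild type, without overlap, and 0.30 (adjusted p = 0.48) in KO, and none of the 3 was called.

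Without the 3 samples that held skeletal muscle RNA, the wild-type differences were 0.59 (adjusted p = 0.08) for Col1a2, 0.49 (adjusted p = 0.26) for Col3a1 and 0.69 (adjusted p = 0.083) for Col5a2. For Col1a1, not called with all samples, it was 0.41 (adjusted p = 0.35). In KO, which none of the 3 belong to, Col3a1 was then 0.47 (adjusted p = 0.068). Leaving out 1 sample at a time kept Col5a2 called in both genotypes in all 12 fits. The wild-type call of Col1a2 was lost in 5 of those fits, without any 1 of wild-type PBS replicates 1, 2 and 3 or wild-type HDM replicates 2 and 3 (adjusted p up to 0.12). The wild-type call of Col3a1 was lost in 2, without wild-type PBS replicate 2 or wild-type HDM replicate 2 (up to 0.061). In KO, Col1a2 was lost in 3 fits, without the KO samples PBS replicate 3 or HDM replicates 2 or 3 (up to 0.066). The KO call of Col3a1 was lost in 6, without wild-type HDM replicate 2, KO PBS replicates 2 or 3, or any KO HDM sample (up to 0.12). With no filter, the wild-type call of Col1a2 and the KO call of Col3a1 were lost as well (adjusted p = 0.0532 for each). Both were also lost when only the 2 groups compared were fitted (0.13 and 0.08) and without an intensity trend (0.086 and 0.079).

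The remaining fibrillar genes showed no called difference. Col27a1, which encodes a chain found mainly in cartilage, ranged over 506 to 686 in all 12 samples. Signals of Col5a3 ranged over 54.9 to 108 and those of Col11a2 over 35.1 to 62.6. Fibroblasts are a main source of fibrillar collagen, and the summed signal of 8 fibroblast markers was 8536 to 9501 in wild type after PBS and 6602 to 7222 after HDM. In KO it was 8521 to 8862 after PBS and 7251 to 7794 after HDM, so the sums lay lower after HDM in both genotypes. Inmt, a methyltransferase, was the largest part of the sum, with means of 3996 and 2394 in wild type and 4113 and 2896 in KO. Of the 8 markers, HDM raised 0 and lowered 2 in wild type by limma (3 at an unadjusted p under 0.05), and raised 1 and lowered 3 in KO. Pdgfra, a receptor of fibroblasts, differed by -0.58 (adjusted p = 0.069) and -0.97 (adjusted p = 0.005). Dcn, which encodes the fibre-coating proteoglycan decorin, differed by -0.41 (adjusted p = 0.3) and -0.21 (adjusted p = 0.6). Mfap4, a microfibril protein, rose in KO, at 0.61 (adjusted p = 0.022), and was 0.12 (adjusted p = 0.72) in wild type, while Mfap5 differed by 0.20 (adjusted p = 0.65) in wild type and 0.64 (adjusted p = 0.063) in KO. Inmt fell, at -0.74 (adjusted p = 0.00083) and -0.51 (adjusted p = 0.0089). Tcf21 fell too, at -0.73 (adjusted p = 0.00077) in wild type and -0.58 (adjusted p = 0.0035) in KO. Lum and Pi16 were called in neither genotype. The part of fibroblast number in the collagen values was not tested.

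The upstream sequence of Col1a2 and Col3a1 is shown because both genes were called in both genotypes. Sequences are the 250 bases before the RefSeq transcription start in GRCm38.p6, written 5′ to 3′ on the gene's strand. Capitals mark matches, on either strand, to any of 5 short motifs. The whole window of 250 bases was searched for each motif, so a match can lie at any distance from the start. TATAAA has the usual letters of a TATA box. The CCAAT box was searched by its own name's letters. For a GC box, bound by Sp1, GGGCGG was used. For AP-1, the Fos and Jun dimer, it was TGANTCA. For STAT6, the transcription factor activated by interleukin 13, it was TTC followed after 4 bases of any kind by the letters GAA.
Col1a2: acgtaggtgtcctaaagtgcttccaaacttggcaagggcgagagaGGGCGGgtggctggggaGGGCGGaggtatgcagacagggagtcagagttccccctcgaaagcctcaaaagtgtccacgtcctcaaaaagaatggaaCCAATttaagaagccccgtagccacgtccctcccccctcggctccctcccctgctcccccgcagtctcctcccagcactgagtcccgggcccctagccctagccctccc
Col3a1: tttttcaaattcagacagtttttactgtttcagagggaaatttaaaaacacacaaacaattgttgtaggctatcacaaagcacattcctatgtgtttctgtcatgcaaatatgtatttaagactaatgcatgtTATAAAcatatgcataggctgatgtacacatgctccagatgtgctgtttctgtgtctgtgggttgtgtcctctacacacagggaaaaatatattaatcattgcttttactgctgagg
The Col1a2 window lies at chr6:4505368-4505617 on the plus strand with a GC content of 62%, and holds 2 GC boxes, 205 and 188 bases before the start, and a CCAAT box 109 bases before it. The Col3a1 window lies at chr1:45311288-45311537 on the plus strand, with a GC content of 35.2% and TATAAA 117 bases before the start. Over all 32851 RefSeq promoter windows of this length the median GC content was 52.4%, with quartiles of 45.2% and 61.2%. A match describes letters and is not evidence of binding.

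Of the 6 type IV genes, 2 fell with HDM in wild type, Col4a4 and Col4a5, and the same 2 fell in KO, with class medians of -0.37 and -0.33. Both belong to the alpha 3, alpha 4, alpha 5 network of alveolar and glomerular basement membrane. Col4a4 signals in wild type were 2018, 1614 and 1542 after PBS and 1100.2, 1131 and 953 after HDM. In KO they were 1701, 1625 and 1441 after PBS and 1208, 1061 and 1076 after HDM. Each HDM sample was below each PBS sample, and the genotypes overlapped. The difference was -0.69 ± 0.12 (SE, adjusted p = 0.0048) in wild type and -0.51 ± 0.12 (SE, adjusted p = 0.025) in KO. A second probe set on the same array type gave -1.07 (adjusted p = 0.0011) and -1.01 (adjusted p = 0.0018). A further one, on set A, gave -0.64 (adjusted p = 0.055) and -1.22 (adjusted p = 0.0017).

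Col4a5 read 287, 278 and 199 in wild type after PBS and 188, 139 and 127 after HDM. In KO it read 319, 266 and 334 after PBS and 168, 159.8 and 171 after HDM. The HDM samples were lower in both genotypes without overlap, with wild-type PBS replicate 3 close to wild-type HDM replicate 1. The difference was -0.73 ± 0.18 (SE, adjusted p = 0.027) in wild type and -0.85 ± 0.18 (SE, adjusted p = 0.012) in KO, and the second Col4a5 probe set gave -0.79 (adjusted p = 0.01) and -0.62 (adjusted p = 0.035).

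Col4a3, which is next to Col4a4 on chromosome 1, completes the network. Its representative probe set read 818, 931 and 647 in wild type after PBS and 411, 751 and 516 after HDM. KO signals were 803, 863 and 855 after PBS and 483, 738 and 482 after HDM. In wild type HDM replicate 2 overlapped the PBS samples, and in KO all HDM samples were lower, with differences of -0.53 ± 0.22 (SE, adjusted p = 0.19) and -0.59 ± 0.22 (SE, adjusted p = 0.13) that were not called. The other tested Col4a3 probe set, on set A, was called in both genotypes. It read 341, 354 and 304 in wild type after PBS and 145, 163 and 134 after HDM. In KO it read 235, 289.7 and 295 and 125, 150.5 and 119. No HDM sample reached a PBS sample on that probe set, and the differences were -1.14 (adjusted p = 0.0005) and -1.02 (adjusted p = 0.0012).

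The chains of the network found under most epithelia and endothelia gave smaller differences. Col4a1 read 1911, 2074 and 2028 in wild type after PBS and 1934, 1873 and 1827 after HDM, with KO signals of 2096, 2195 and 1733 and 1764, 1799 and 1824. Its differences were -0.09 ± 0.10 (SE, adjusted p = 0.69) and -0.15 ± 0.10 (SE, adjusted p = 0.41). A second Col4a1 probe set gave -0.21 (adjusted p = 0.38) in wild type, and in KO it gave 0.27 (adjusted p = 0.22), with HDM samples above PBS samples. Col4a2, the neighbour of Col4a1 on chromosome 8, read 977, 1502 and 1531 in wild type after PBS and 1304, 1019.7 and 1088 after HDM. Its KO signals were 1346, 1194 and 1214 and 1169, 1210.5 and 1133, and its differences were -0.21 ± 0.16 (SE, adjusted p = 0.53) and -0.09 ± 0.16 (SE, adjusted p = 0.78). On the representative probe sets the treatments overlapped for both genes in both genotypes. Col4a6, next to Col4a5 on the X chromosome, ranged over 31.6 to 76 with differences of -0.13 (adjusted p = 0.85) and 0.25 (adjusted p = 0.64).

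When the samples with skeletal muscle RNA were left out, the wild-type difference was -0.88 (adjusted p = 0.042) for Col4a4 and -0.88 (adjusted p = 0.1) for Col4a5. When only the 2 groups were fitted, Col4a5 in wild type had an adjusted p of 0.12, and without an intensity trend Col4a4 in KO had one of 0.06. The wild-type call of Col4a4 was kept in all 12 fits that left out 1 sample. That of Col4a5 was lost in 4, without wild-type PBS replicates 1 or 2 or wild-type HDM replicates 2 or 3 (adjusted p up to 0.11). In KO the call of Col4a4 was lost in 4, without KO PBS replicates 1 or 2 or KO HDM replicates 2 or 3 (up to 0.094), and that of Col4a5 in 1, without KO PBS replicate 3 (0.052). Among cells that rest on this membrane, summed markers of alveolar type 1 cells and endothelium lay lower after HDM as well. The sum of 4 alveolar type 2 markers overlapped between treatments in both genotypes. It was 15221 to 16474 in wild type after PBS and 12825 to 16779 after HDM. The KO ranges were 13550 to 16746 after PBS and 14574 to 15460 after HDM. HDM lowered 1 of the 4 in wild type and 0 in KO. The summed signal of 5 alveolar type 1 markers, the flat gas-exchange cells, was 20565 to 25796 in wild type after PBS and 12672 to 17644 after HDM. In KO it was 25458 to 29157 after PBS and 18786 to 21235 after HDM. Ager was the largest part of this sum, with means of 17473.5 and 13093 in wild type and 21277 and 15777 in KO. It was not called, at -0.42 (adjusted p = 0.17) and -0.43 (adjusted p = 0.15), and its wild-type treatments overlapped. HDM lowered 3 of the 5 type 1 markers in wild type and 2 in KO. Aqp5, a water channel of those cells, differed by -1.22 (adjusted p = 5.4e-05) and -1.08 (adjusted p = 0.00015). Hopx differed by -0.78 (adjusted p = 0.0086) in wild type and -0.13 (adjusted p = 0.69) in KO. The sum of 5 endothelial markers was 6199 to 6715 in wild type after PBS and 3725 to 4285 after HDM. It was 5784 to 6805 in KO after PBS and 3995 to 4269 after HDM, and HDM lowered 5 of the 5 in wild type and 4 in KO. The part of these alveolar and endothelial cells in the type IV values was not tested.

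Upstream windows of the type IV genes called in both genotypes are given for comparison with those above.
Col4a4: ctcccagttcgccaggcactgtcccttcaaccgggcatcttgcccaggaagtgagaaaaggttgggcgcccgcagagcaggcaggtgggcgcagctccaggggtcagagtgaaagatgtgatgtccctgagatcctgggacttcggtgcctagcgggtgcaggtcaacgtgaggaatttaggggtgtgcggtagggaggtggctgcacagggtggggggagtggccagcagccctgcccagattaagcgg
Col4a5: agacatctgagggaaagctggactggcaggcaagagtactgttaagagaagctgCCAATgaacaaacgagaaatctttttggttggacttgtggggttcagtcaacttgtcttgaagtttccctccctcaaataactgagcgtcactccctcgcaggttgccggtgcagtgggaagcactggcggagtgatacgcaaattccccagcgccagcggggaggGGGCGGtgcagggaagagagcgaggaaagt
The Col4a4 window, chr1:82586850-82587099 on the minus strand with a GC content of 62.8%, held none of the 5 motifs. The Col4a5 window, chrX:141475169-141475418 on the plus strand with a GC content of 54%, held CCAAT 196 bases and a GC box 30 bases before the start.

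Of the type VI genes, 3 of 4 tested rose with HDM in wild type, with a median of 0.58. In KO 0 of 4 were called by limma, 1 had an unadjusted p under 0.05, and the median was 0.23. Col6a1, Col6a2 and Col6a3 encode the 3 chains of the common type VI molecule, and Col6a2 and Col6a1 are neighbours on chromosome 10. Col6a2 signals in wild type were 1002, 1173 and 1168 after PBS and 2111, 2222 and 2184 after HDM. In KO they were 1128, 893 and 943 after PBS and 1169.9, 1103 and 1281 after HDM. The 3 wild-type HDM samples stood above the other 9, and the KO treatments overlapped. Group means were 1114 ± 97.3 (SD, n = 3) and 2172 ± 56.4 (SD, n = 3) in wild type, against 988 ± 124 (SD, n = 3) and 1184 ± 90.1 (SD, n = 3) in KO. The HDM difference was 0.96 ± 0.11 (SE, adjusted p = 0.00028) in wild type, a 1.95-fold rise, and 0.26 ± 0.11 (SE, adjusted p = 0.19) in KO. A second Col6a2 probe set gave 0.94 (adjusted p = 0.0002) in wild type and 0.21 (adjusted p = 0.27) in KO.

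Col6a1 showed the same arrangement of samples. Wild-type signals were 1106, 1091 and 1249.6 after PBS and 1802, 1931 and 1940.0 after HDM. KO signals were 1090.3, 1011 and 941 after PBS and 1185, 1051 and 1260.2 after HDM. The lowest wild-type HDM sample was above the highest of all other samples, and the KO treatments overlapped. The HDM difference was 0.72 ± 0.10 (SE, adjusted p = 0.0012) in wild type and 0.20 ± 0.10 (SE, adjusted p = 0.29) in KO. Col6a3 read 591, 746 and 778 in wild type after PBS and 946, 1059 and 878 after HDM, with KO signals of 777, 690.5 and 747 and 722, 812 and 782. Its wild-type HDM samples were above the other groups, and its differences were 0.45 ± 0.12 (SE, adjusted p = 0.043) in wild type and 0.06 ± 0.12 (SE, adjusted p = 0.81) in KO. The wild-type call of Col6a3 was lost in 11 of 12 fits that left out 1 sample (adjusted p up to 0.15) and under 6 of the other settings, among them the replicate block (0.06). Col6a4, the fourth type VI gene tested, ranged over 52.7 to 574 with its highest signal in wild-type PBS replicate 2, and differed by 0.22 (adjusted p = 0.9) in wild type and 1.09 (adjusted p = 0.33) in KO.

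Tested directly, KO against wild type after HDM gave 3 collagen genes, all lower in KO: Col6a1, Col6a2 and Col14a1. That was 9.38% of the collagens tested, beside 0.677% of all genes (0.187% higher and 0.491% lower). The difference after HDM was -0.87 ± 0.11 (SE, adjusted p = 0.0042) for Col6a2, -0.70 ± 0.10 (SE, adjusted p = 0.01) for Col6a1 and -0.80 ± 0.15 (SE, adjusted p = 0.034) for Col14a1. Second probe sets gave -0.86 (adjusted p = 0.0031) for Col6a2 and -1.11 (adjusted p = 0.0048) for Col14a1. Col6a3 differed by -0.31 (adjusted p = 0.49). This comparison uses the same wild-type HDM samples as the HDM comparison in wild type, so the 2 are not independent. A total of 8 collagens had an unadjusted p under 0.05 here, as did 9.86% of all genes. Over probe sets, 5 of 53 were called, beside 0.457% of all.

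After PBS, KO against wild type gave 0 collagens by limma, with 2 at an unadjusted p under 0.05, while 0.0207% of all genes were called and 7.48% had such a p. The largest such difference was 0.52 ± 0.14 (SE, adjusted p = 0.49), for Col13a1. The interaction, the KO HDM effect minus the wild-type HDM effect, was also called for 0 collagens by limma, beside 0.159% of all genes. It had an unadjusted p under 0.05 for 4 of 32 collagens and for 6.12% of all genes. Those 4 were Col6a1 at -0.52 (adjusted p = 0.62), Col6a2 at -0.70 (adjusted p = 0.35), Col6a3 at -0.38 (adjusted p = 0.87) and Col14a1 at -0.48 (adjusted p = 0.86). A different size of HDM effect in the genotypes was therefore not called for any collagen, whereas the difference between genotypes after HDM was called for 3.

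**Figure D2:**
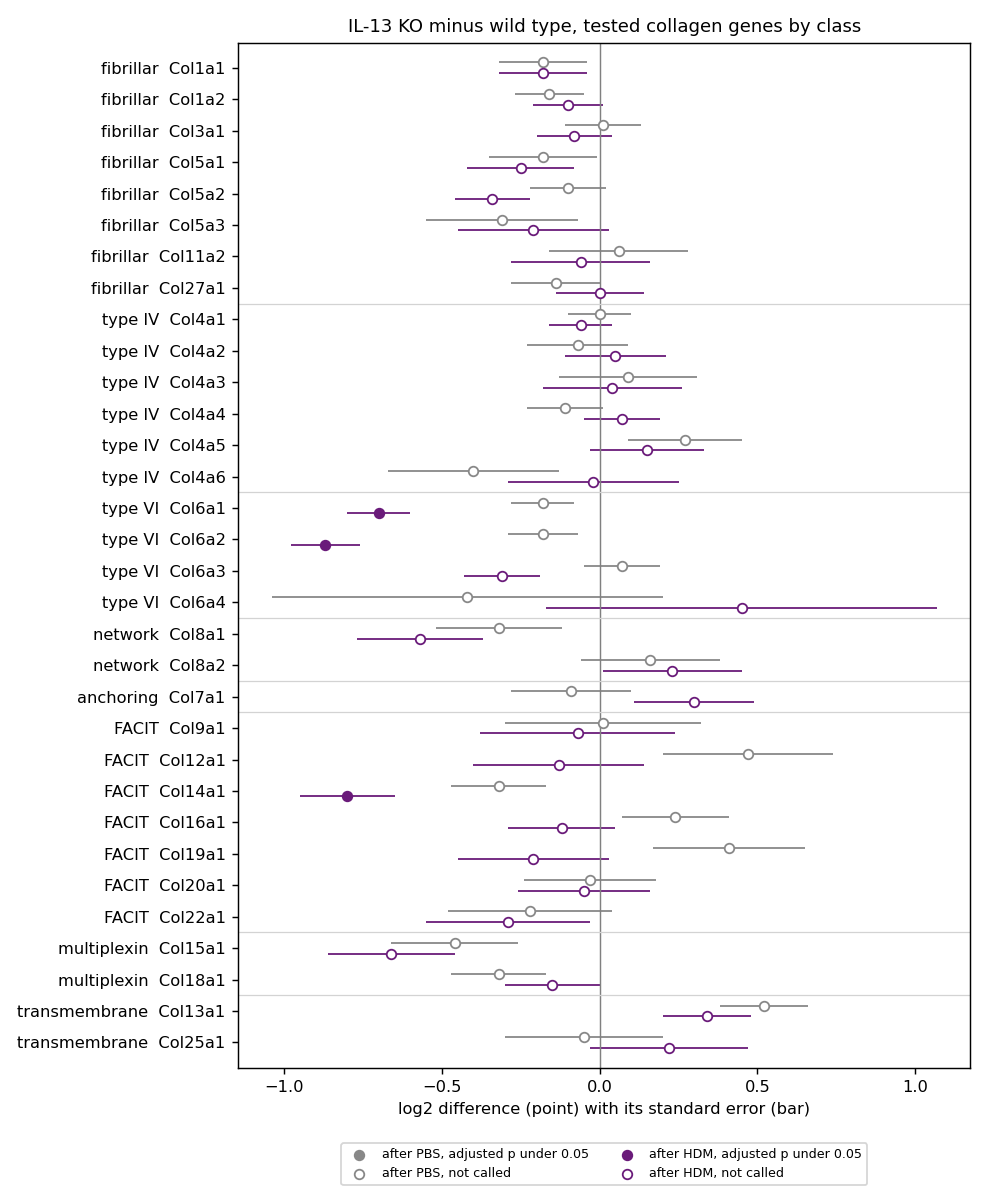
IL-13 KO minus wild type for the same 32 collagen genes, after PBS (grey) and after HDM (purple), as log2 differences with standard errors. Filled points had an adjusted p under 0.05, which was reached after HDM by Col6a1 (-0.70), Col6a2 (-0.87) and Col14a1 (-0.80) and by no gene after PBS.

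Several other measures differed between the HDM groups beside these genes. The summed signal of 6 smooth muscle markers, contractile genes of airway and vessel walls, was 2122 to 2726 in wild type after PBS and 4948 to 5682 after HDM. In KO it was 2301 to 2922 after PBS and 1959.8 to 2173 after HDM. HDM raised 4 of the 6 in wild type and lowered 2 in KO, the interaction was called for 4, and 5 were lower in KO than in wild type after HDM. The shares of all genes in the same order were 5.4%, 5.3%, 0.159% and 0.491%. Without the 3 samples with skeletal muscle RNA the interaction had adjusted p of 0.17 to 0.85 for the 6 and was called for none. Acta2, smooth muscle actin, read 2239, 2641 and 2743 in wild type after HDM and 1186, 1058 and 1001 in KO after HDM. The part of smooth muscle RNA in the type VI and Col14a1 values was not tested. The 5′ to 3′ ratio of the actin control probe sets was 0.695 to 0.832 in wild type after HDM and 0.464 to 0.656 in KO after HDM on set A, and 0.643 to 0.851 and 0.428 to 0.612 on set B, without overlap on either. In KO after PBS it was 0.61 to 0.897 on set B, where it overlapped the KO HDM samples, unlike on set A. In wild type after PBS set A gave 0.409 to 0.898 and set B 0.349 to 0.939, overlapping the HDM samples. The lowest ratio on each set was that of wild-type PBS replicate 2, which also held skeletal muscle RNA. The same ratio for Gapdh on set A was 1.09 to 1.16 and 1.04 to 1.16, and overlapped. The part of RNA integrity was not tested.

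Skeletal muscle RNA was seen in 2 of the 3 wild-type HDM samples. In wild-type HDM replicate 3, where the 8 skeletal muscle genes summed to 355, the Col6a1 signal was 1940.0 and the Col6a2 signal 2184. These were within or above the range of replicates 1 and 2. For some other genes raised in wild type, replicate 3 was the lowest of its group. Col6a3 read 878, against 946 and 1059, and Col14a1 379.7, against 434 and 412. The same held for Col15a1, at 148.5, Col8a1, at 177, Col5a2, at 832, and by a small margin Col3a1, at 2708. For Col1a2, at 3707, replicate 3 was the highest of its group. The part of skeletal muscle RNA in these values was not tested. Without the 3 samples, the wild-type HDM difference was 1.01 (adjusted p = 0.022) for Col6a2, 0.72 (adjusted p = 0.056) for Col6a1 and 0.37 (adjusted p = 0.37) for Col6a3. KO against wild type after HDM was then -0.88 (adjusted p = 0.13) for Col6a2, -0.74 (adjusted p = 0.17) for Col6a1 and -0.70 (adjusted p = 0.45) for Col14a1, and none was called. In the 12 fits that left out 1 sample, Col6a2 kept its call in this comparison throughout. Col6a1 lost it without wild-type HDM replicate 2 (adjusted p = 0.057) or KO HDM replicate 2 (adjusted p = 0.0523). Col14a1 lost it in 7 of the 12, without any 1 of the wild-type or KO HDM samples or without KO PBS replicate 3 (up to 0.17). Fitting only the HDM groups, Col14a1 had an adjusted p of 0.057. Without an intensity trend in the variance model, Col6a2 alone was called.

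The windows upstream of the adjacent genes Col6a1 and Col6a2 are shown because these 2 genes moved together.
Col6a1: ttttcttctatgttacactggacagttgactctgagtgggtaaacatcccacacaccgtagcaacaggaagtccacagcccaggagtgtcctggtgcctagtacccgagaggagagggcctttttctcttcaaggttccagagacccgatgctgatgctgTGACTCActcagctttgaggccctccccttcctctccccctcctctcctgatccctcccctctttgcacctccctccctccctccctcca
Col6a2: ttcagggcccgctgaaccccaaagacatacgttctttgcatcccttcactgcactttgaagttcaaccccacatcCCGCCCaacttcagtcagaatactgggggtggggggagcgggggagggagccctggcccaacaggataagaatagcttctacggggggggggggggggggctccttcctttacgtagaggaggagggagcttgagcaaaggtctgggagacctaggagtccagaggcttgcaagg
The Col6a1 window, chr10:76726045-76726294 on the minus strand, has a GC content of 56% and an AP-1 match 90 bases before the start. The Col6a2 window, chr10:76623631-76623880 on the minus strand, is the outermost of 2 listed for the gene, has a GC content of 59.2% and a GC box on the opposite strand 175 bases before the start. Over 35 windows of 32 collagen genes, the STAT6 spacing was found in 0, against 5.85% of all 32851 windows. GC boxes were in 57.1% of the collagen windows and 32.7% of all, CCAAT in 37.1% and 33.8%, TATAAA in 14.3% and 12.4%, and the AP-1 site in 2.86% and 6.75%. Absence of a match says only that these letters are not in this window.

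**Figure D3:**
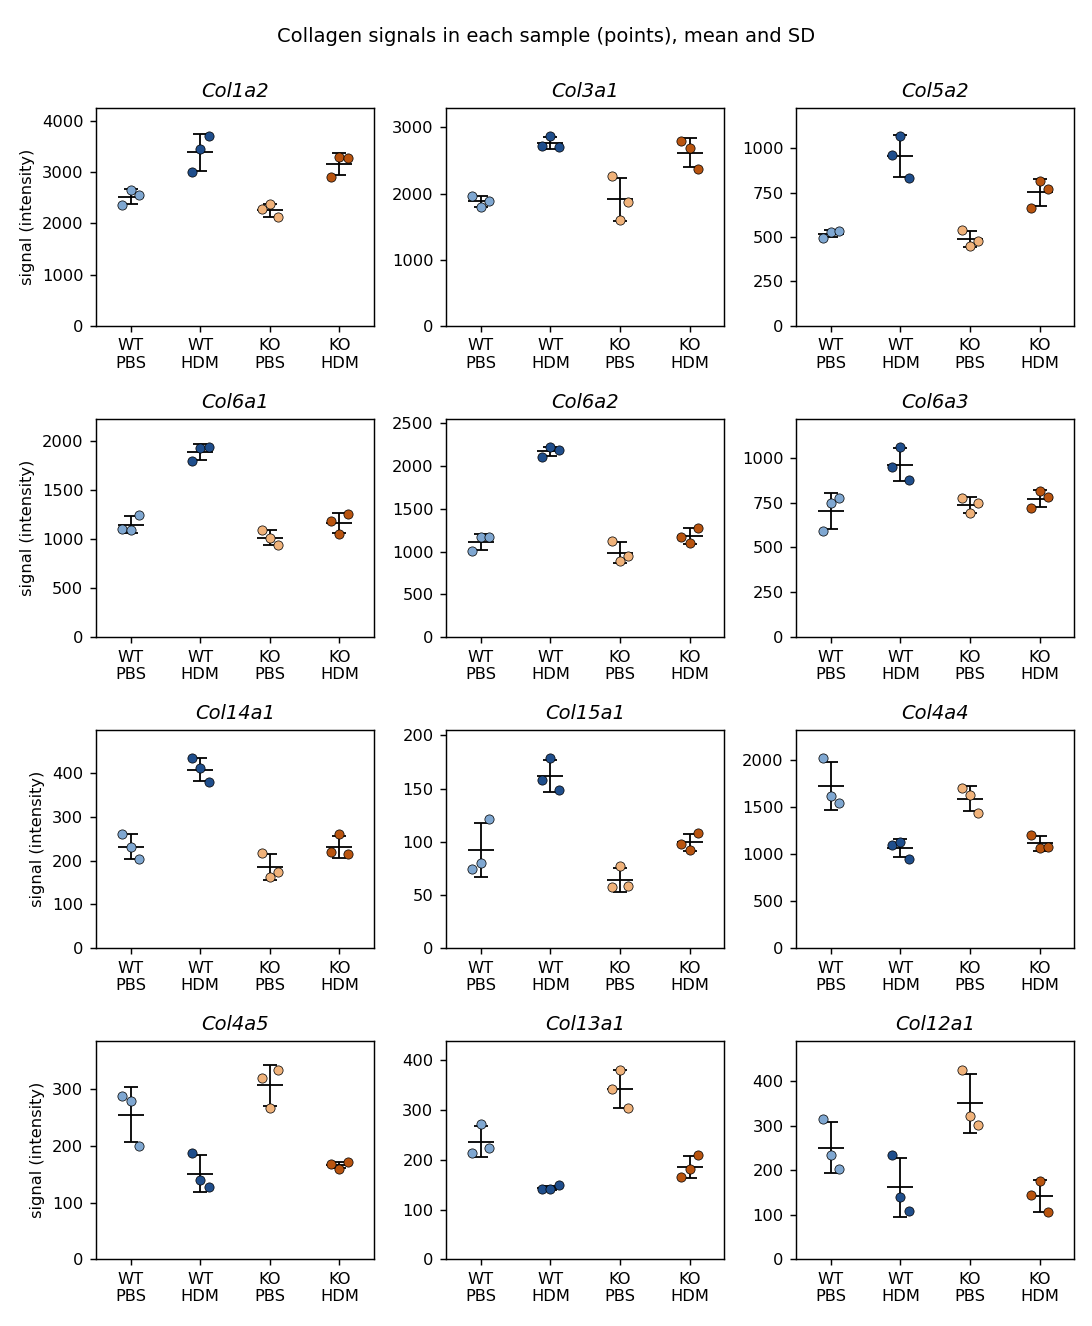
Signals of 12 collagen genes in every sample (points), with the group mean and SD (bars), on linear axes that start at 0, for wild type (WT, blue) and IL-13 KO (KO, orange) after PBS (light) and HDM (dark). The 3 wild-type HDM samples stand above the other 9 for Col5a2, Col6a1, Col6a2, Col6a3, Col14a1 and Col15a1, and both genotypes are lower after HDM for Col4a4, Col4a5 and Col13a1. The share of all genes with such an arrangement was not counted.

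Among fibril-associated collagens, 1 of 7 tested genes rose in wild type and 1 fell in KO. Col14a1, which binds the surface of type I fibres, read 262, 232 and 203 in wild type after PBS and 434, 412 and 379.7 after HDM. In KO it read 218, 163 and 175 after PBS and 219, 261 and 216 after HDM. Wild-type HDM samples were again above the other 9, and the KO treatments overlapped. The HDM difference was 0.80 ± 0.15 (SE, adjusted p = 0.0054) in wild type and 0.32 ± 0.15 (SE, adjusted p = 0.22) in KO. The second probe set gave 0.98 (adjusted p = 0.0014) in wild type and 0.04 (adjusted p = 0.92) in KO. The wild-type difference was 0.70 (adjusted p = 0.19) without the 3 samples with skeletal muscle RNA.

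Col12a1, a related fibril-associated chain of tendon and other dense tissue, read 316, 234 and 204 in wild type after PBS and 236, 141 and 109 after HDM. KO signals were 426, 323 and 302 after PBS and 144, 176 and 106 after HDM. HDM samples overlapped PBS samples in wild type and were all lower in KO. The difference was -0.65 ± 0.27 (SE, adjusted p = 0.19) in wild type and -1.25 ± 0.27 (SE, adjusted p = 0.013) in KO. The other tested probe set, with signals of 11.8 to 112, gave -1.08 (adjusted p = 0.15) and -0.04 (adjusted p = 0.97) and did not show the KO difference. The KO call was lost without replicate 1 of KO PBS (-1.11, adjusted p = 0.057) or KO HDM replicate 3 (-1.07, adjusted p = 0.059). The wild-type difference reached -0.94 (adjusted p = 0.0462) without wild-type HDM replicate 1. The other 5 tested members of the class were not called in any comparison. They were Col9a1, with signals of 44.7 to 112, Col16a1, with 103 to 177, Col19a1, with 41.7 to 90.4, Col20a1, with 31.3 to 49.6, and Col22a1, with 100.4 to 239.

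The multiplexins sit in basement membrane zones and release fragments that inhibit vessel growth. Col15a1 rose in wild type, where it read 74.7, 80.4 and 121 after PBS and 158, 178 and 148 after HDM. In KO it read 57.1, 76.8 and 58.3 after PBS and 97.8, 92.7 and 108 after HDM. HDM samples were higher in both genotypes without overlap, and the wild-type HDM samples were above those of KO. The difference was 0.79 ± 0.20 (SE, adjusted p = 0.031) in wild type and 0.59 ± 0.20 (SE, adjusted p = 0.094) in KO. It was 0.60 (adjusted p = 0.41) in wild type without the 3 samples with skeletal muscle RNA. The wild-type call was lost in 5 of 12 fits that left out 1 sample, without wild-type PBS replicates 1 or 2 or any wild-type HDM sample (adjusted p of 0.066 to 0.11), and when only the wild-type groups were fitted (0.099). Col18a1, the other multiplexin and the source of endostatin, read 205, 238 and 241 and 206, 225 and 188 in wild type after PBS and HDM. Its KO signals were 184, 167 and 191 and 150.3, 221 and 190.0. The treatments overlapped, with differences of -0.14 (adjusted p = 0.7) and 0.03 (adjusted p = 0.93).

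Col8a1, a short-chain collagen of vessel walls, read 156, 135 and 136 in wild type after PBS and 272, 288 and 177 after HDM. In KO it read 119.9, 114 and 102 after PBS and 124, 189 and 169.5 after HDM. HDM samples were above PBS samples in both genotypes, with wild-type HDM replicate 3 lower than the other two of its group. The difference was 0.71 ± 0.20 (SE, adjusted p = 0.0484) in wild type and 0.46 ± 0.20 (SE, adjusted p = 0.19) in KO. Its wild-type call was lost in 10 of 12 fits that left out 1 sample (adjusted p up to 0.17), and without the 3 samples with skeletal muscle RNA the difference was 0.26 (adjusted p = 0.71). It was also lost with no filter (adjusted p = 0.063), with quantile normalization (0.056), with only the wild-type groups (0.11), with the replicate block (0.061) and without an intensity trend (0.058). The other tested probe set, which was dimmer, gave 0.71 (adjusted p = 0.15) in wild type and 0.00 (adjusted p = 1) in KO and was not called. Col8a2, its partner chain, ranged over 101 to 234 with differences of -0.41 (adjusted p = 0.34) and -0.34 (adjusted p = 0.4). Col7a1, the anchoring fibril that fastens epithelium to the tissue below, ranged over 59.8 to 96.9 with differences of -0.08 (adjusted p = 0.88) and 0.31 (adjusted p = 0.36).

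Col13a1, a transmembrane collagen found at cell adhesion sites, fell in both genotypes. Wild-type signals were 213, 271 and 224 after PBS and 142, 142 and 149 after HDM. KO signals were 342, 381 and 304 after PBS and 165, 182 and 209 after HDM. HDM samples were lower without overlap in both genotypes, and KO samples lay above wild-type samples under both treatments. The HDM difference was -0.68 ± 0.14 (SE, adjusted p = 0.012) in wild type and -0.86 ± 0.14 (SE, adjusted p = 0.0029) in KO. The difference between genotypes was not called under either treatment, at 0.52 (adjusted p = 0.49) after PBS and 0.34 (adjusted p = 0.53) after HDM. Without the 3 samples with skeletal muscle RNA the wild-type difference was -0.54 (adjusted p = 0.25), and it was -0.68 (adjusted p = 0.057) when only the wild-type groups were fitted. Col25a1, the other tested transmembrane collagen, ranged over 65.9 to 133 and was not called. Second tested probe sets of Col25a1, Col6a4, Col9a1, Col18a1, Col20a1 and Col27a1 were not called in any comparison either.

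The 9 collagens under the filter on low signal ranged over 0.986 to 115 and were not tested. They include collagens best known from cartilage and growth plate: Col2a1, at 2.07 to 31.1, Col9a2, at 0.986 to 2.72, Col9a3, at 7.07 to 10.7, Col10a1, at 2.74 to 9.26, and Col11a1, at 6.64 to 53.7. The summed signal of 9 cartilage markers was 939 to 1294 in the wild-type PBS group, 862 to 1012 in the wild-type HDM group, 623 to 753 in the KO PBS group and 522 to 734 in the KO group given HDM. Most of it was Cytl1, a cytokine-like protein, with means of 790.4 and 522 in wild type after PBS and HDM and 375 and 264 in KO, while Chad and Acan had means of 183 and 53.5 in wild type and 194 and 47 in KO after PBS. Col6a5 ranged over 4.53 to 47.2 and Col26a1 over 10.8 to 115. Col24a1, a minor fibrillar collagen, read 11.6, 5.06 and 13.9 in wild type after PBS and 37.3, 22.5 and 35.8 after HDM, with the HDM samples above the PBS samples. Its KO signals were 22.4, 8.31 and 17.2 and 12.8, 19.5 and 19 and overlapped. Col17a1, the hemidesmosome collagen of basal epithelial cells, read 33.5, 23.9 and 29.2 in KO after PBS and 4.22, 4.38 and 5.87 after HDM. In wild type it read 34.9, 26.4 and 22.7 and 3.21, 24.6 and 20.1, where replicate 1 after HDM was low and the treatments overlapped. With no filter the KO difference of Col17a1 was -1.60 (adjusted p = 0.022). Col6a6 and Col28a1 were not analysed here.

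Collagen also depends on genes that modify, process, bind and degrade it. Of 75 such genes 66 were tested. In wild type 15 were called with HDM, 5 higher and 10 lower (22.7%), and in KO 18, 5 higher and 13 lower (27.3%), beside the 10.6% and 11% of all genes given above. Their medians were -0.10 in wild type and -0.08 in KO. KO against wild type gave 0 of 66 by limma after PBS (6 at an unadjusted p under 0.05) and 0 after HDM (10 unadjusted), and the interaction 0 (2 unadjusted). In the same order, 0.0207%, 0.677% and 0.159% of all genes were called. An unadjusted p under 0.05 was reached by 7.48%, 9.86% and 6.12% of all genes. Among the 9 not tested, Mmp13, described with the degrading enzymes, was called for KO against wild type after HDM when no filter was set. Without the 3 samples with skeletal muscle RNA, 5 of the 66 were called in wild type, and 9 when only the wild-type groups were fitted. The 5 were Ctsk at 2.54 (adjusted p = 0.0024), Timp1 at 2.26 (adjusted p = 0.0023), Pcolce2 at -1.41 (adjusted p = 0.0073), Tnxb at -1.39 (adjusted p = 0.013) and Lama3 at -1.02 (adjusted p = 0.018). The other 10 of the 15 kept their direction, with adjusted p from 0.0523 for Ppib to 0.18 for Pcolce. In KO 11 were called without KO PBS replicate 3.

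Among 16 tested genes of collagen modification and folding, HDM raised 1 and lowered 2 in wild type, and raised 1 and lowered 3 in KO. Ppib, a prolyl isomerase of the collagen-folding complex, rose by 0.48 (adjusted p = 0.04) in wild type and 0.54 (adjusted p = 0.02) in KO. Colgalt2, which adds galactose to hydroxylysine, fell, at -0.80 (adjusted p = 0.0097) and -0.88 (adjusted p = 0.0058). P4ha2, a subunit of prolyl 4-hydroxylase, also fell, at -0.73 (adjusted p = 0.024) and -0.65 (adjusted p = 0.038). Plod2, a lysyl hydroxylase, fell in KO at -0.81 (adjusted p = 0.017) and was -0.23 (adjusted p = 0.56) in wild type. The difference between these 2 effects was -0.58 (adjusted p = 0.87). Of 4 tested genes for removal of propeptides, HDM lowered 2 in each genotype. Pcolce and Pcolce2 encode enhancers of the enzyme that trims the procollagen end. Pcolce2 read 1105, 1497 and 1297 in wild type after PBS and 714, 673 and 445 after HDM, with differences of -1.10 (adjusted p = 0.0024) in wild type and -0.73 (adjusted p = 0.025) in KO. Pcolce differed by -0.52 (adjusted p = 0.026) and -0.50 (adjusted p = 0.029).

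None of 5 tested crosslinking genes was called by limma in any comparison, beside 10.6% and 11% of all genes for HDM in wild type and KO. For KO against wild type, 2 had an unadjusted p under 0.05 under either treatment, beside 7.48% of all genes after PBS and 9.86% after HDM. For either HDM comparison 0 had such a p. Lox encodes lysyl oxidase, which starts the crosslinks of collagen fibres. It read 352, 522 and 519.9 in wild type after PBS and 210.2, 269.5 and 258 in KO after PBS. After HDM it read 379.9, 712 and 471 in wild type and 278, 285 and 255 in KO. The KO samples were below the wild-type samples under both treatments, with differences of -0.89 ± 0.22 (SE, adjusted p = 0.41) after PBS and -0.87 ± 0.22 (SE, adjusted p = 0.16) after HDM. Tgm2, a transglutaminase, differed by 0.15 (adjusted p = 0.43) with HDM in wild type, and Loxl4 by 0.36 (adjusted p = 0.39) in KO.

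Of 10 genes for proteins that bind collagen fibres, HDM raised 1 and lowered 3 in wild type, and raised 2 and lowered 3 in KO. Tnxb, which encodes tenascin X, a spacer between fibres, read 203, 201 and 216 in wild type after PBS and 89.5, 121 and 75.5 after HDM. It fell in both genotypes, at -1.08 (adjusted p = 0.002) and -1.08 (adjusted p = 0.0022). Ogn, a small leucine-rich proteoglycan, fell, at -0.78 (adjusted p = 0.0066) and -0.80 (adjusted p = 0.0057), and so did Prelp, of the same family, at -0.73 (adjusted p = 0.0087) and -0.69 (adjusted p = 0.012). Fn1, fibronectin, on which new collagen is laid, read 1530.5, 1533 and 1426 in KO after PBS and 2604, 2518 and 2276 after HDM. Fn1 rose by 0.45 (adjusted p = 0.018) in wild type and 0.72 (adjusted p = 0.0011) in KO. Its wild-type signals were 2013, 2392.5 and 2215 after PBS and 2813, 3040 and 3170.5 after HDM. The KO samples were below the wild-type samples under both treatments. The genotype difference was -0.56 ± 0.10 (SE, adjusted p = 0.16) after PBS and -0.29 ± 0.10 (SE, adjusted p = 0.42) after HDM. Neither was called, nor was the interaction, at 0.27 (adjusted p = 0.9).

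Of 13 basement membrane partners of type IV collagen, HDM raised 0 and lowered 2 in wild type, and raised 0 and lowered 4 in KO, by limma. Lama3, the laminin alpha 3 chain of epithelium, read 357, 437 and 385 in wild type after PBS and 220.4, 214 and 179 after HDM. It fell, at -0.92 (adjusted p = 0.00078) in wild type and -0.79 (adjusted p = 0.0022) in KO. Pxdn, peroxidasin, which makes the sulfilimine bonds of type IV collagen, fell at -0.56 (adjusted p = 0.018) and -0.65 (adjusted p = 0.008). Agrn, the heparan sulfate proteoglycan agrin, fell in KO at -0.73 (adjusted p = 0.0065) and was -0.39 (adjusted p = 0.12) in wild type.

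The largest differences among tested partners were in degradation and uptake, where HDM raised 3 and lowered 1 of 11 tested genes in wild type and raised 2 and lowered 1 in KO. Ctsk, cathepsin K, a lysosomal protease that cleaves the triple helix, read 131, 118 and 87.3 in wild type after PBS and 699, 689 and 658 after HDM. In KO it read 125, 139 and 122 after PBS and 430.4, 332 and 486 after HDM. Every HDM sample was above every PBS sample, and after HDM the wild-type samples were above those of KO. The HDM difference was 2.55 ± 0.17 (SE, adjusted p = 3.7e-06) in wild type and 1.62 ± 0.17 (SE, adjusted p = 0.00011) in KO, and the difference between these effects, -0.93 ± 0.24 (SE, adjusted p = 0.5), was not called. Timp1, an inhibitor of matrix metalloproteinases, read 95.5, 95.5 and 93.1 in wild type after PBS and 378, 437 and 479.5 after HDM. It rose by 2.10 (adjusted p = 6.8e-06) in wild type and 1.65 (adjusted p = 5.6e-05) in KO. Mmp13, a secreted collagenase, lay under the filter on low signal and was picked out after its values were seen. It read 15.2, 10.5 and 5.88 in wild type after PBS and 149, 141 and 146 after HDM, and in KO 4.54, 5.69 and 10.1 and 51.4, 31.2 and 52. Treatments did not overlap in either genotype, and after HDM every wild-type sample was above every KO sample. With no filter its HDM difference was 3.15 (adjusted p = 4.8e-05) in wild type and 1.91 (adjusted p = 0.0018) in KO, larger than that of Ctsk. KO against wild type after HDM was then -1.58 (adjusted p = 0.029), and the interaction -1.25 (adjusted p = 0.74). Mmp14, a membrane-bound collagenase, rose in wild type at 0.77 (adjusted p = 0.005) and was 0.45 (adjusted p = 0.07) in KO. Timp3, an inhibitor that binds the matrix, fell at -0.65 (adjusted p = 0.001) and -0.60 (adjusted p = 0.0019). The sum of 5 macrophage markers, cells known to express Ctsk, was 1777 to 2059 in wild type after PBS and 3574 to 4638 after HDM. It was 1791 to 2064 in KO after PBS and 3880.1 to 4335 after HDM, and its part in these values was not tested. No collagen receptor among 7 tested was called by limma in any comparison, beside 10.6% and 11% of all genes for HDM in wild type and KO. An unadjusted p under 0.05 was reached by 3 in each HDM comparison, for which the share of all genes was not counted. In KO against wild type after PBS it was reached by 1, beside 7.48% of all genes. The smallest p in wild type was for Ddr2, a receptor tyrosine kinase for fibrillar collagen, at -0.40 (adjusted p = 0.059), and in KO for Ddr1 at 0.42 (adjusted p = 0.12).

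**Figure D4:**
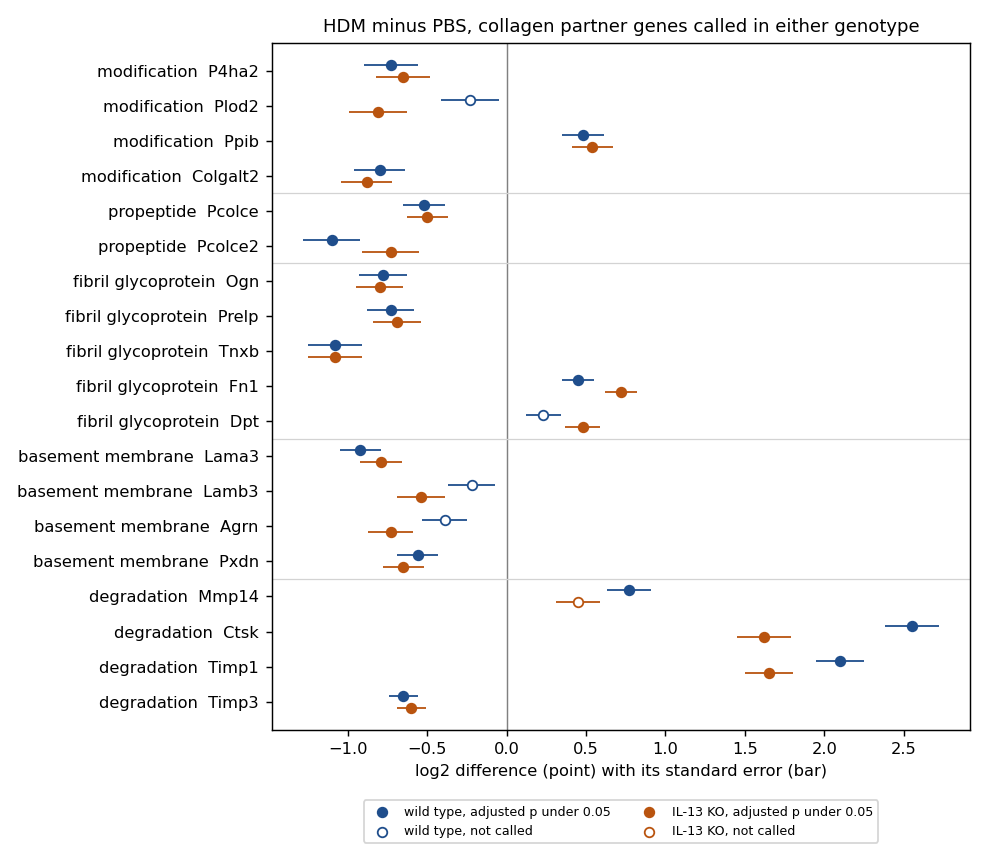
HDM minus PBS in wild type (blue) and IL-13 KO (orange) for the 19 collagen partner genes called in either genotype, grouped by role, as log2 differences with standard errors. Filled points had an adjusted p under 0.05. Ctsk and Timp1 lie farthest to the right, and Tnxb and Pcolce2 farthest to the left.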

How the data were processed

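Lung RNA of 12 samples was measured on 24 arrays, 1 of set A and 1 of set B per sample, and group, replicate number and the pairing of arrays were read from the sample titles. The authors deposited a linear intensity for each probe set on each array, and the program behind it is not given in the sources used here. All arrays had a mean of 150 once 2% was trimmed at each end, which shows scaling by the authors, and it was kept. Array medians were 69.5 to 77.7 (set A) and 83.5 to 93.7 (set B). No detection calls were used, and the number of arrays limits the precision.

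Intensities were converted to log2(value + pseudocount), the pseudocount being about the 10th percentile of values, 7 for set A and 11 for set B, so differences of dim genes are understated. Control probe sets were dropped, as were those whose mean log2 value fell in the lowest 30% of their set (signals of about 32 and 39.2), and 100 probe sets repeated on set B were read from set A. This left 15838 and 15658 probe sets. One limma 3.58.1 model in R 4.3.3 with 4 group means (8 residual degrees of freedom), trended eBayes variances and p-values adjusted by Benjamini-Hochberg across the 31496 was used for 5 comparisons. On simulated data for HDM against PBS in wild type, over 31496 probe sets, it recovered 43% of log2 changes of 1 and 91% of changes of 2. The simulation changed far fewer probe sets than were called in the real comparison, so these shares may not hold for it. On set A the platform annotation gave a single gene for 20393 probe sets, several for 691 and none for 1606. The set B numbers were 14674, 245 and 7656, and 20364 and 14499 single-gene probe sets matched RefSeq. No gene was named from a probe set with several.

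The members, the collagen classes, the 75 partner genes, the marker lists and the naming rule were chosen with earlier results of these data known. Every collagen was named, those called or in a short list of main chains with all sample values. For the HDM comparisons, partner genes were named as up to 3 called per role and comparison with the largest difference, or the 1 with the smallest p. Of the genes that this rule picks for the genotype comparisons and the interaction, only some are given. One collagen gene is not reported here. Alternatives were pseudocounts of 1 and 32, no filter and a filter at the 50th percentile, quantile normalization, only the groups compared, the replicate number as a block, each sample left out, the 3 samples with skeletal muscle RNA left out, no intensity trend, and every tested probe set. Promoter windows came from RefSeq (GRCm38.p6), which listed 32 of the 41 genes.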

Additional observations from a re-analysis of the deposited data

Results flagged for a closer look

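A difference between the genotypes in the HDM effect was called by limma for 4 of the 6 smooth muscle markers, given in the report beside type VI collagen, and for no tested collagen or partner gene. Of all genes, 0.159% were called for it. The KO HDM effect minus the wild-type HDM effect, in log2, was -2.19 ± 0.33 (SE, adjusted p = 0.036) for Myh11, the smooth muscle myosin heavy chain. It was -2.19 ± 0.25 (SE, adjusted p = 0.0076) for Actg2, a smooth muscle actin, and -1.42 ± 0.19 (SE, adjusted p = 0.016) for Tagln, an actin-binding protein. For Acta2 it was -1.18 ± 0.19 (SE, adjusted p = 0.0465). In wild type HDM raised all 4, by 1.23 for Myh11, 1.73 for Actg2, 1.07 for Tagln and 1.04 for Acta2. In KO the HDM difference was -0.96 (adjusted p = 0.025), -0.47 (adjusted p = 0.13), -0.35 (adjusted p = 0.13) and -0.14 (adjusted p = 0.59) in the same order. Skeletal muscle RNA was present in wild-type PBS replicate 2 and wild-type HDM replicates 1 and 2, where 8 skeletal muscle genes summed to 3039.5, 1751 and 6557, against 355 in wild-type HDM replicate 3. Without those 3 samples the interaction was -1.84 (adjusted p = 0.38) for Myh11, -2.01 (adjusted p = 0.17) for Actg2, -1.38 (adjusted p = 0.17) for Tagln and -1.27 (adjusted p = 0.26) for Acta2, and none was called. The wild-type HDM difference was then 0.88 (adjusted p = 0.22) for Myh11, 1.54 (adjusted p = 0.019) for Actg2, 1.03 (adjusted p = 0.019) for Tagln and 1.14 (adjusted p = 0.02) for Acta2. The actin 5′ to 3′ ratio on set A was 0.464 to 0.656 in the KO samples given HDM and 0.695 to 0.832 in the wild-type ones, and its part was not tested.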

How the results depend on the processing

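No called collagen difference changed sign in any of the alternatives. Of 22 called pairs of gene and comparison, 6 stayed called under every alternative that left out no single sample and 9 under every fit without 1 sample. For HDM in wild type, 12 collagens became 6 when only the wild-type groups were fitted, 2 without the 3 samples with skeletal muscle RNA, 6 to 11 without 1 sample, and 20 of 53 probe sets when every tested probe set was counted. For HDM in KO, 7 became 3 to 7 without 1 sample and 15 of 53 probe sets. For KO against wild type after HDM, 3 became 0 without those 3 samples, 1 without an intensity trend, 1 to 3 without 1 sample and 5 of 53 probe sets. The interaction and KO against wild type after PBS stayed at 0 collagens without any 1 sample. Of the partner genes, 15 called in wild type became 9, 5 and 10 to 16 under the first 3 of these, and 18 called in KO became 11 to 18 without 1 sample. For KO against wild type after HDM, 0 became 1 with a pseudocount of 32 and 1 with no filter, Mmp13 in both. Causes of these changes in count were not tested, and some of the fits also held fewer samples.

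Replicate numbers were not shown to pair the samples: same-numbered samples had correlated deviations of -0.131 to 0.183, above 0.1 in 6 of 36 pairs. With the replicate block 10 collagens were called for HDM in wild type, 7 in KO and 3 for KO against wild type after HDM, and 15 and 17 partner genes for HDM in wild type and KO. Precision is limited by 3 samples a group and, for dim probe sets, by signal close to background.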
